A study of Rattus norvegicus with 9 samples.

Results

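The 7 genes described here are 4 CXC chemokine ligands that attract neutrophils (Cxcl1, Cxcl2, Cxcl3 and Cxcl6), the receptor gene Cxcr2, and the cytokine gene Csf3 with its receptor gene Csf3r. They were taken by gene symbol from a deposited count table of 23768 genes, and all 7 symbols were found. The genes were chosen by name with the fold changes of these same libraries already known, so their levels and folds are given as a description, with no p-value. RNA came from tibia of male Sprague Dawley rats, with 3 libraries each in the groups Model, GelMA and PMLGH. By its title, the study concerns bone healing in diabetes and a peptide made to mimic lysyl oxidase. GelMA commonly stands for gelatin methacryloyl, a gelatin used as a hydrogel, whereas PMLGH is not spelled out in the labels. The labels do not give the way diabetes or the bone injury was brought about, what the Model rats received, their age or the day of sampling. Neither do the labels state that the replicates of a group are separate animals, so p-values measure the spread between these libraries, which may be technical.

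As background, ELR-type CXC chemokines are small secreted proteins that bind CXCR2, a G protein-coupled receptor on neutrophils, and direct these cells out of blood and marrow toward a site of injury. Stromal cells, endothelium and macrophages make the ligands on stimulation by interleukin-1, tumour necrosis factor or bacterial products, largely through NF-kappaB. Csf3 encodes G-CSF, which drives the formation and release of neutrophils through its receptor on the granulocyte lineage. In marrow, CXCR2 signals and the retaining pair CXCL12 and CXCR4 act in opposite directions on neutrophil release.

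The promoters of 3 ligand genes are shown because NF-kappaB is the textbook route to these genes. All 4 ligands were also higher in GelMA and PMLGH than in Model. Within groups, the deviations of the 3 genes shown did not run together over the 9 libraries. Their r was -0.02 for Cxcl1 and Cxcl2, 0.10 for Cxcl1 and Cxcl6 and -0.80 for Cxcl2 and Cxcl6. Cxcl3, which is not shown, had r = 0.90 with Cxcl2. In Model 1, 2 and 5, Cxcl2 held 0, 8 and 2 counts and Cxcl3 held 1, 8 and 2. The r of these genes therefore depend on values near the floor. Shared control of these genes was not tested. RefSeq promoter sequences were matched for 5 of the 7 genes. Cxcl3 and Csf3 are the missing entries. Each line gives the 120 bases before the annotated start, 5′ to 3′ in the direction of the gene, with matches to the 10-base kappaB consensus in capitals. On build GRCr8, all 3 lie on the minus strand, at chr14:17479322-17479441 for Cxcl1, chr14:17467256-17467375 for Cxcl2 and chr14:17596418-17596537 for Cxcl6.
Cxcl1: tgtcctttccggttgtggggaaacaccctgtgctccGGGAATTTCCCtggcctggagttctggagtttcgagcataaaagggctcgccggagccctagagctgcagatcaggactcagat
Cxcl2: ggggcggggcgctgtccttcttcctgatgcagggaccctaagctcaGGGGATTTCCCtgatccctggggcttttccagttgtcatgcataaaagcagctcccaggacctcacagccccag
Cxcl6: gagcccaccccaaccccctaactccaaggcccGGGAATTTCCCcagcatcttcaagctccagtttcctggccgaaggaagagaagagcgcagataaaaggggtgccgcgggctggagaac
The capitals span positions -84 to -74 in Cxcl1, -74 to -64 in Cxcl2 and -88 to -78 in Cxcl6, counted back from the start. No match to the consensus was found in the 250 bases before the starts of Cxcr2 and Csf3r. The consensus, searched on both strands and added after the sequences were seen, occurred in 6.34% of 33360 RefSeq promoters and in 8.31% of the 12519 that belong to genes tested here. A stricter kappaB motif, GGANTTTCC, overlaps it and was present in Cxcl1 and Cxcl6 but not Cxcl2, against 1.09% of all promoters. The C/EBP-type motif TTNNGNAA was present in Cxcl2, Cxcl6 and Csf3r, against 37.2% of all promoters. Neither the AP-1 motif TGANTCA, in 6.35% of promoters, nor TATAAA, in 12.9%, was found in any of the 5. Such matches describe letters and are not evidence of binding.

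Levels below are CPM, read counts scaled to the TMM-adjusted size of the library, unless FPKM is named. FPKM divides by gene length as well and is used wherever levels of different genes are compared. Fold changes are log2 differences ± SE fitted by edgeR over all 9 libraries. A gene was called when its adjusted p fell under 0.05 among 16816 genes tested. All 7 genes passed the filter on low counts. For Cxcl2, Cxcl3 and Csf3, however, no Model library reached the cutoff of 0.276 CPM (10 counts), so these genes passed through GelMA and PMLGH alone. Total counts per library ran from 34571478 to 37166383. Model 2 was the least alike of its group: the chi-square statistic per gene averaged 33.0 against Model 1 and 27.7 against Model 5, compared with 15.7 between Model 1 and Model 5. No batch is named in the labels, and any that followed the groups cannot be told apart from treatment.

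Across the 7 genes, 6 were called higher in PMLGH than in Model and none lower, where 15.7% of all genes tested were called higher and 11.9% lower. The same 6 genes had no overlap between the libraries of these groups, a pattern that 21.1% of all genes showed in that direction. In GelMA against Model, 6 were called higher and none lower, beside 12.7% and 9.88% of all genes, and 5 of the 6 had no overlap, beside 19.8%. None of the 7 was called between PMLGH and GelMA, where 1.8% of genes were called higher and 1.64% lower. Even so, 5 of the 7 had every PMLGH library above every GelMA library, as 12.3% of all genes did. The median log2 difference of the 7 genes was 3.50, 2.66 and 0.50 in the 3 comparisons in that order, where the medians over all genes tested were 0.02, 0.03 and 0.00. Since the genes were chosen on these contrasts, nothing is read from the shares. The comparisons of PMLGH and of GelMA with Model use the same 3 Model libraries and are not independent of each other.

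**Figure D1:**
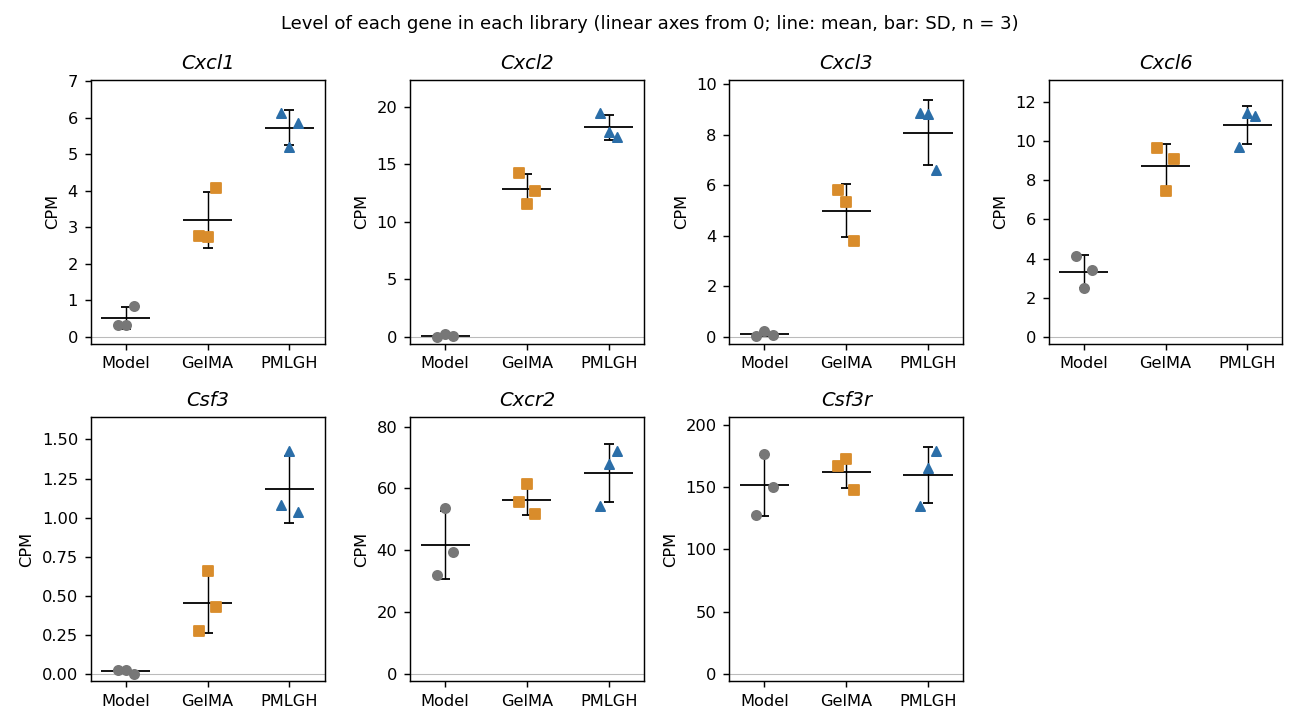
Level in CPM of each of the 7 genes in each library of Model, GelMA and PMLGH, on linear axes from 0, with the group mean as a line and the SD as a bar (n = 3). Cxcl2 and Cxcl3 lie near 0 in Model and are higher in both other groups, while the 3 groups of Csf3r overlap.

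Cxcl2, also called MIP-2, had the largest difference among the 7 genes in both comparisons with Model. Its level was 0, 0.225 and 0.0587 CPM in Model 1, 2 and 5, which together held 10 counts. It was 14.3, 11.6 and 12.7 CPM in GelMA 2, 3 and 4, and 19.5, 17.9 and 17.4 CPM in PMLGH 2, 3 and 4. The 3 groups did not overlap, and the gene went from nearly silent to a readily measured level in both GelMA and PMLGH. The fitted log2 difference was 7.51 ± 0.31 for PMLGH against Model and 7.01 ± 0.32 for GelMA against Model. As a ratio of scaled counts, PMLGH was 189 times Model, with a 95% counting interval of 102 to 394 that covers counting error only. Model 2 alone held 8 of the 10 Model counts, and without it the log2 differences were 9.09 and 8.58. Such fits depend on the prior at so few counts, and their SE can be too small. As these are bulk samples, fewer cells of a type and less RNA per cell cannot be told apart here or for any gene below.

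Cxcl3, a close relative of Cxcl2 that also signals through CXCR2, had the same order of groups. Model 1, 2 and 5 had 0.0295, 0.225 and 0.0587 CPM (1, 8 and 2 counts), GelMA 2, 3 and 4 had 5.83, 5.33 and 3.81 CPM, and PMLGH 2, 3 and 4 had 8.85, 8.81 and 6.60 CPM. No library overlapped between groups. The log2 difference was 6.21 ± 0.38 for PMLGH against Model and 5.51 ± 0.39 for GelMA against Model, which became 7.38 and 6.69 without Model 2. Cxcl1, Cxcl2 and Cxcl3 are similar in sequence, and the rule for counting reads that fit several genes was not stated. The split of reads among the 3 genes is therefore uncertain.

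Cxcl1, also known as KC or GRO-alpha, is a main CXCR2 ligand of stimulated stroma and endothelium. Its level was 0.324, 0.338 and 0.851 CPM in Model 1, 2 and 5, or 11, 12 and 29 counts. It was 2.76, 2.74 and 4.08 CPM in GelMA 2, 3 and 4, and 6.13, 5.20 and 5.86 CPM in PMLGH 2, 3 and 4. The groups again did not overlap, and PMLGH was the highest. The log2 difference was 3.50 ± 0.32 for PMLGH against Model, 2.66 ± 0.32 for GelMA against Model and 0.84 ± 0.26 for PMLGH against GelMA. Model 5 was the highest Model library, and without it the differences from Model were 4.08 and 3.25.

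Cxcl6 is the rat gene that stands for the CXCL5 and CXCL6 group of ligands, and the name Cxcl5 is listed as its synonym by RefSeq. Per gene length it was the highest of the 4 ligands in Model, far under the platelet gene Ppbp (1.94 against 345 FPKM). Its level was 4.13, 2.48 and 3.40 CPM in Model 1, 2 and 5, 9.64, 7.47 and 9.10 CPM in GelMA 2, 3 and 4, and 9.69, 11.4 and 11.3 CPM in PMLGH 2, 3 and 4. PMLGH 2 lay only just above GelMA 2, so these groups nearly touched, and both stood above Model. The log2 difference was 1.70 ± 0.18 for PMLGH against Model and 1.39 ± 0.18 for GelMA against Model. Model 2 was the lowest Model library for Cxcl6, whereas it was the highest for Cxcl2.

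Csf3, the gene of G-CSF, was the scarcest of the 7. Model 1, 2 and 5 held 1, 1 and 0 counts. GelMA 2, 3 and 4 held 10, 24 and 16 counts (0.276, 0.656 and 0.432 CPM), and PMLGH 2, 3 and 4 held 40, 53 and 38 (1.08, 1.43 and 1.04 CPM). All 3 groups were apart. On scaled counts PMLGH was 61.2 times Model (95% counting interval 16.6 to 510) and GelMA was 23.6 times Model (6.19 to 199.99). Because Model had 2 counts in all, these ratios are wide and no closer value can be given. Between PMLGH and GelMA, with 131 and 50 counts in all, the log2 difference was 1.37 ± 0.49. Both this estimate and its SE were the largest of the 7 genes in that comparison.

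**Figure D2:**
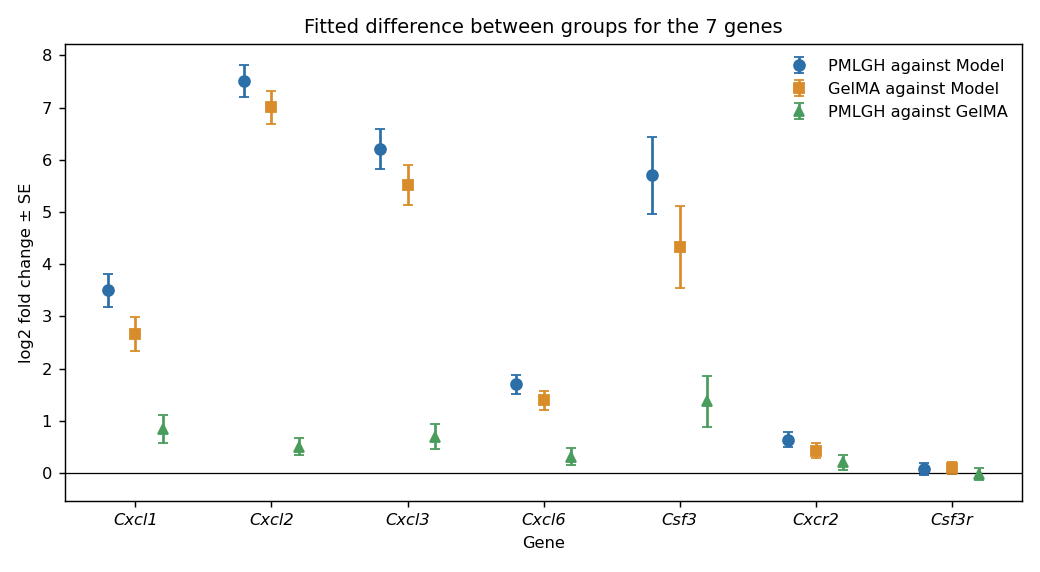
Fitted log2 fold change ± SE of the 7 genes in the 3 comparisons, with 0 as no difference. Cxcl2 reaches 7.51 and 7.01 against Model, while Csf3r stays between -0.02 and 0.10 in all 3 comparisons.

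The receptors differed far less than their ligands. Cxcr2 was 32.1, 53.8 and 39.6 CPM in Model 1, 2 and 5, 55.6, 61.3 and 51.8 CPM in GelMA 2, 3 and 4, and 54.4, 68.0 and 72.2 CPM in PMLGH 2, 3 and 4. Every PMLGH library was above every Model library, though PMLGH 2 only just exceeded Model 2, and GelMA overlapped both other groups. The log2 difference was 0.63 ± 0.14 for PMLGH against Model. For GelMA against Model it was 0.43 ± 0.15, and this call was fragile. It was lost in 13 of 19 alternatives, among them leaving out Model 1 (0.27), Model 5 (0.38), GelMA 2 (0.43), GelMA 3 (0.34), GelMA 4 (0.47), PMLGH 3 (0.42) or PMLGH 4 (0.43).

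Csf3r, which marks the granulocyte lineage from precursor to mature cell, had overlapping groups throughout. It was 128, 177 and 150 CPM in Model 1, 2 and 5, 167, 172 and 147 CPM in GelMA 2, 3 and 4, and 135, 165 and 179 CPM in PMLGH 2, 3 and 4. Its log2 difference was 0.08 ± 0.11 for PMLGH against Model, 0.10 ± 0.11 for GelMA against Model and -0.02 ± 0.11 for PMLGH against GelMA, and it was called in none of them. The sign of the differences from Model turned to -0.03 and -0.01 without Model 1. Cxcr2 and Csf3r shared much of their variation within groups, with r = 0.96 between their deviations over 9 libraries. Model 2 was the highest Model library for both.

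Set against each other per gene length, the receptors changed order. The ratio of Cxcr2 to Csf3r in FPKM was 0.754, 0.913 and 0.793 in Model 1, 2 and 5, 0.998, 1.07 and 1.05 in GelMA 2, 3 and 4, and 1.21, 1.24 and 1.21 in PMLGH 2, 3 and 4. Group means were 0.820 ± 0.083, 1.04 ± 0.04 and 1.22 ± 0.02 (SD, n = 3), with no overlap between any groups. Cxcr2 was 31.4 ± 8.5 FPKM and Csf3r 37.9 ± 6.5 FPKM in Model (SD, n = 3). These levels overlapped between libraries, though Cxcr2 was the lower of the pair within each Model library. In PMLGH they were 49.0 ± 6.7 and 40.2 ± 5.4 FPKM. As both genes were chosen on these libraries, the ratio is a description with no test.

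**Figure D3:**
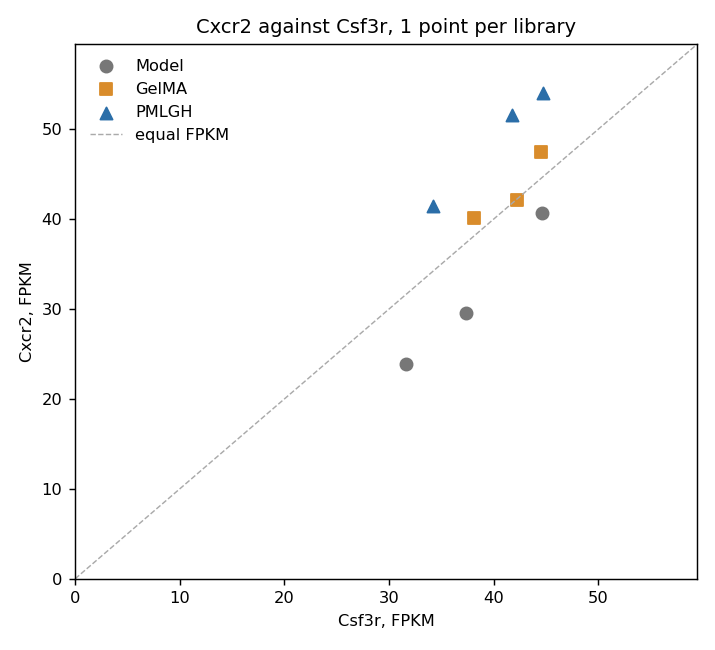
Cxcr2 against Csf3r in FPKM, 1 point per library, with a dashed line where both are equal. All Model points lie below the line (ratios 0.754 to 0.913), the GelMA points lie close to it and all PMLGH points lie above it (1.21 to 1.24).

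The mix of these 4 ligands also differed between groups. Summed over Cxcl1, Cxcl2, Cxcl3 and Cxcl6, the level was 2.64 ± 0.41 FPKM in Model, 24.1 ± 1.9 FPKM in GelMA and 34.6 ± 1.7 FPKM in PMLGH (SD, n = 3), without overlap. That sum leaves out Ppbp, another ligand gene of this axis. Ppbp was far higher and went the other way, with means of 345, 279 and 248 FPKM in Model, GelMA and PMLGH. Cxcl6 made up 73.5% ± 11.6 of that sum in Model but 21.7% ± 1.1 in GelMA and 18.4% ± 2.3 in PMLGH (SD, n = 3). Cxcl2 went the other way, from 3.70% ± 4.95 to 49.0% ± 1.2 and 47.5% ± 1.1 (SD, n = 3). In Model the order in FPKM was Cxcl6 (1.94 ± 0.47), Cxcl1 (0.534 ± 0.317), then Cxcl2 (0.0853 ± 0.1056) and Cxcl3 (0.0729 ± 0.0742), of which the last 2 did not differ beyond their spread. In PMLGH, Cxcl2 led at 16.5 ± 1.1 FPKM, and Cxcl6 (6.37 ± 0.54), Cxcl1 (6.12 ± 0.52) and Cxcl3 (5.67 ± 0.95) lay within each other's spread. GelMA had the same leader, at 11.8 ± 1.1 FPKM, followed by Cxcl6 (5.23 ± 0.64), Cxcl3 (3.55 ± 0.72) and Cxcl1 (3.47 ± 0.86), the last 2 being within their spread. Csf3 remained at 0.436 ± 0.081 FPKM in PMLGH (SD, n = 3).

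**Figure D4:**
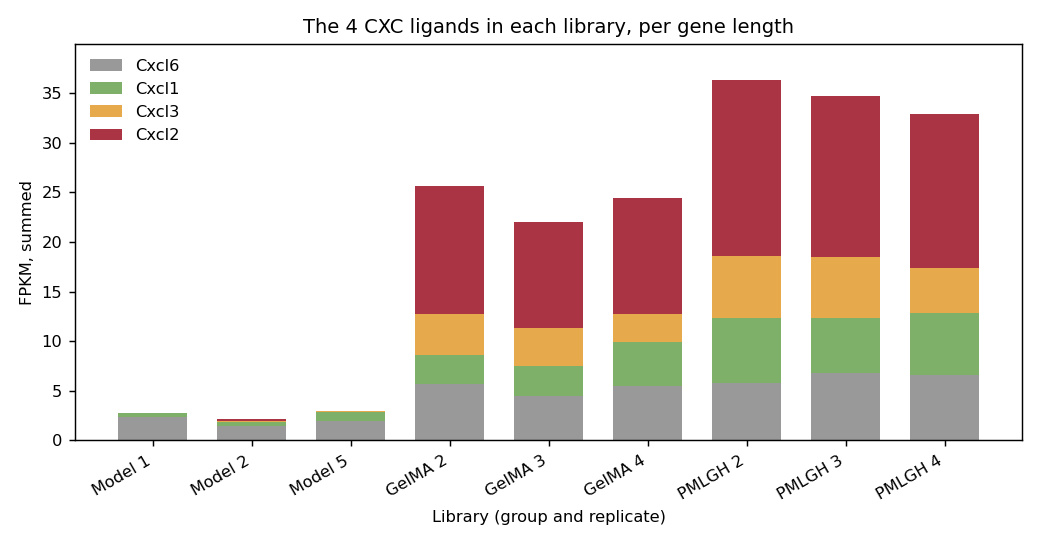
FPKM of the 4 CXC ligands stacked for each library, from 0. The Model bars stay near 2.64 and are mostly Cxcl6, whereas Cxcl2 fills close to 49.0% of the GelMA bars and 47.5% of the PMLGH bars.

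Between PMLGH and GelMA the differences were smaller than those from Model for the 4 ligands, Cxcr2 and Csf3, and their calls depended on the setting. All libraries of PMLGH exceeded all of GelMA for Cxcl1, Cxcl2, Cxcl3, Cxcl6 and Csf3, with log2 differences of 0.84 ± 0.26, 0.50 ± 0.17, 0.70 ± 0.23, 0.31 ± 0.16 and 1.37 ± 0.49. Cxcr2 (0.21 ± 0.14) and Csf3r overlapped. Cxcl1, Cxcl2 and Cxcl3 were called by DESeq2, with only the 2 groups in the fit and without Model 2. They were also called with the replicate number as a block (0.86, 0.51 and 0.70). That fit left out the Model libraries too, so it is a variant of the fit with only the 2 groups. Cxcl1 was also called without Model 5 (0.84) and Cxcl2 without Model 1 (0.50), and both with no filter on low counts. On log2(FPKM + 1), limma called Cxcl2 with the filter, and Csf3 with and without it (0.29). Leaving out any GelMA or PMLGH library gave no call among the 7.

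In the RefSeq gene order, the 4 ligand genes lie in 1 stretch of chromosome 14, in the order Cxcl2, Cxcl1, LOC134481726, Cxcl3, Pf4, Ppbp and Cxcl6. Pf4 (CXCL4) and Ppbp (the precursor of CXCL7) are platelet chemokines, and both were lower in GelMA and PMLGH than in Model. Ppbp was 132, 112 and 126 CPM in Model 1, 2 and 5, 105, 86.1 and 99.9 CPM in GelMA 2, 3 and 4, and 87.7, 84.4 and 90.8 CPM in PMLGH 2, 3 and 4. It fell by 0.49 on the log2 scale in PMLGH against Model (SE 0.08, edgeR adjusted p = 2.5e-04) and by 0.35 in GelMA against Model (SE 0.08, adjusted p = 0.0044). Pf4 fell by 0.39 in GelMA against Model (SE 0.06, edgeR adjusted p = 4.0e-04). In PMLGH against Model it fell by 0.18 (SE 0.06, adjusted p = 0.039), a call lost in 8 of 19 alternatives, among them leaving out Model 1 (-0.18), Model 5 (-0.20), GelMA 2 (-0.18), PMLGH 3 (-0.16) or PMLGH 4 (-0.17). Between PMLGH and GelMA, Pf4 differed in the direction of the ligands, by 0.21 ± 0.06 with no overlap (edgeR adjusted p = 0.090), and this was called in 3 of 20 alternatives, including leaving out Model 2 (0.21).

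The other genes of the pathway were taken from 9 lists, with 93 genes in the table and 87 tested, none of them a member. These lists were chosen with earlier results of these data known, and up to 4 genes of smallest p are named from each. Their p-values and counts of calls are therefore a description and no independent support. Against Model, 43 rose and 4 fell with PMLGH, and 20 rose and 4 fell with GelMA. Between PMLGH and GelMA, 12 rose and 1 fell. The counts moved with the library Model 2, without which 40 rose and 5 fell in GelMA against Model, and without it 18 rose and 2 fell in PMLGH against GelMA. In that last comparison 5 to 8 genes were called without GelMA 2, GelMA 3, GelMA 4, PMLGH 3 or PMLGH 4. The shares of all genes called, given above, are the background for these counts and for those of each list below.

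**Figure D5:**
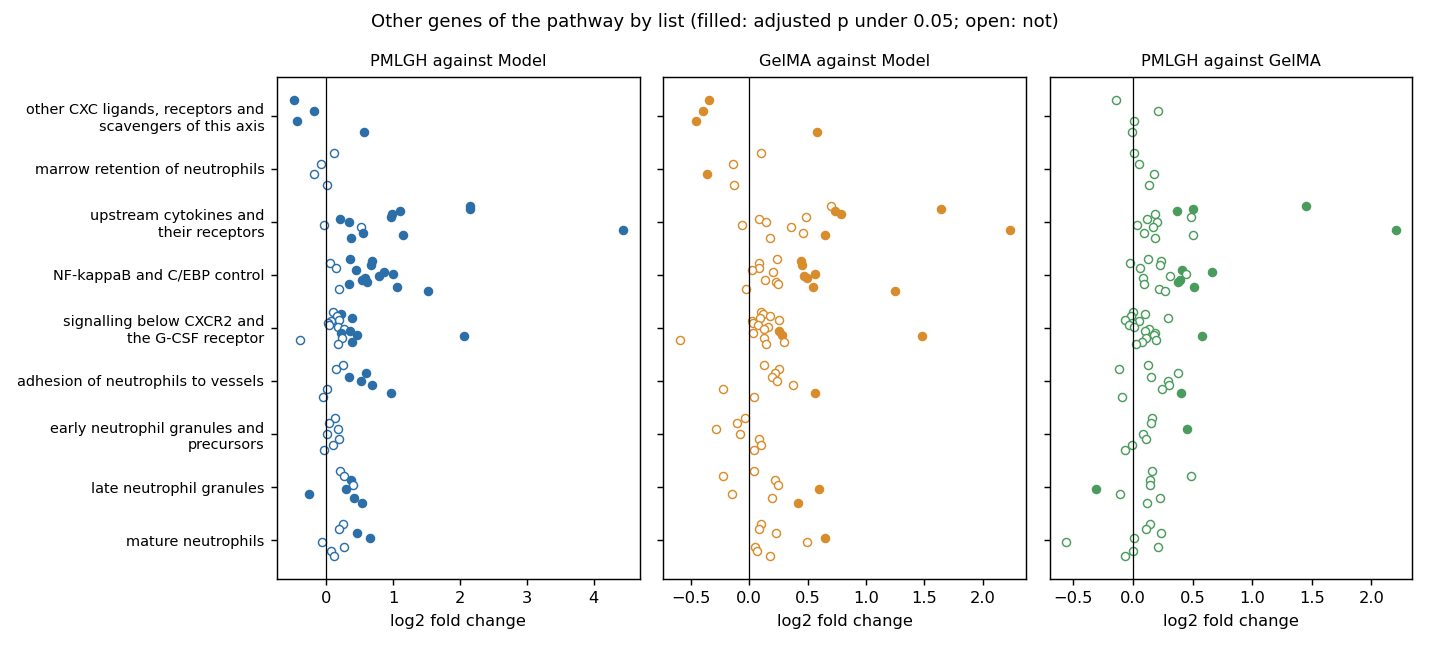
Log2 fold change of each tested gene of the 9 pathway lists in the 3 comparisons, 1 point per gene, filled where the edgeR adjusted p was under 0.05. The cytokine and NF-kappaB lists lie mostly to the right of 0 in PMLGH against Model, with 11 of 13 and 13 of 16 filled, while the early granule list has no filled point there.

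Of the other ligands, receptors and scavengers of this axis, 4 were tested, and in both comparisons with Model 1 rose and 3 fell. The list's median log2 difference was -0.31 with PMLGH and -0.37 with GelMA. The gene that rose was Ackr3, a scavenger of CXCL12, by 0.57 ± 0.12 (edgeR adjusted p = 0.0023) with PMLGH and 0.58 ± 0.12 (adjusted p = 0.0028) with GelMA. Ackr1, an atypical chemokine receptor of red cells and venules, fell by 0.44 with PMLGH (SE 0.10, adjusted p = 0.0056). The remaining genes that fell were Ppbp and Pf4. Cxcr1, the second ELR chemokine receptor, had 1 count over the 9 libraries. None of the 4 was called between PMLGH and GelMA, though 1 rose without Model 2.

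The marrow retention list, Cxcl12, Cxcr4, Vcam1 and Itga4, had 1 call. No gene passed in PMLGH against Model, and only Vcam1, an adhesion molecule of marrow stroma and vessels, fell in GelMA against Model, by 0.36 (SE 0.07, edgeR adjusted p = 0.0016). Cxcl12, the marrow retention chemokine, differed by 0.11 ± 0.06 with PMLGH and 0.10 ± 0.06 with GelMA, and its receptor gene Cxcr4 by -0.08 ± 0.07 and -0.14 ± 0.07. In PMLGH against Model, Vcam1 gave -0.19 ± 0.07 (edgeR adjusted p = 0.059) and fell in 8 of 19 alternatives, namely RLE and upper-quartile scaling, no filter, robust spread, DESeq2, globin genes left out, and without GelMA 3 (-0.21) or PMLGH 4 (-0.24). The list median was -0.04, -0.13 and 0.09 in the 3 comparisons in the order above.

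Cytokines that induce these chemokines in other settings, with their receptors, were mostly higher with PMLGH. Of 13 tested, 11 rose in PMLGH against Model, 5 in GelMA against Model and 4 in PMLGH against GelMA, and none fell. The list medians were 0.97, 0.48 and 0.20. Il1b, an inducer of CXC ligands, was 11.3, 15.9 and 13.0 CPM in Model 1, 2 and 5, 44.6, 39.7 and 41.0 CPM in GelMA 2, 3 and 4, and 52.4, 65.0 and 60.5 CPM in PMLGH 2, 3 and 4. It rose by 2.15 ± 0.11 with PMLGH (edgeR adjusted p = 3.7e-09) and by 1.64 ± 0.11 with GelMA (adjusted p = 1.3e-07). Il1a, the other interleukin-1 agonist, stood apart in PMLGH at 5.72, 5.71 and 5.21 CPM, where GelMA had 2.38, 2.00 and 1.70 CPM and Model 0.796, 1.58 and 1.35 CPM. It rose by 2.15 ± 0.25 in PMLGH against Model (edgeR adjusted p = 1.8e-05) and by 1.45 ± 0.24 in PMLGH against GelMA (adjusted p = 0.0024). Il1r1, the signalling receptor, rose by 1.11 ± 0.09 and 0.74 ± 0.09 against Model with PMLGH and GelMA (edgeR adjusted p = 3.2e-07 and 3.0e-05), and the natural antagonist Il1rn rose too, by 0.98 ± 0.11 and 0.79 ± 0.11 (adjusted p = 8.7e-06 and 9.2e-05).

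Il6, singled out after its values were seen, held 2, 5 and 1 counts in Model, 19, 15 and 7 in GelMA and 66, 65 and 62 in PMLGH. Its log2 difference was 4.44 ± 0.59 for PMLGH against Model and 2.21 ± 0.48 for PMLGH against GelMA, a description given with no p-value. No Model library reached 10 counts of Il6, so it passed the filter only through the groups where it was higher. The interleukin-17 genes, which induce G-CSF in many tissues, were scarce, with 13 counts of Il17a and 20 of Il17f over the 9 libraries, and were not tested. The counts of this list depended on single libraries. In GelMA against Model, 8 rose without Model 2 and 3 without Model 5 or without GelMA 3. In PMLGH against GelMA, 2 rose without GelMA 3, PMLGH 2 or PMLGH 4, and 1 without GelMA 4 or PMLGH 3.

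Of 16 genes of NF-kappaB and C/EBP control tested, 13 rose in PMLGH against Model, 7 in GelMA against Model and 5 in PMLGH against GelMA, with none lower. The list medians were 0.59, 0.24 and 0.25. Nfkbiz, an inducible cofactor of NF-kappaB, was 20.3, 17.8 and 20.8 CPM in Model 1, 2 and 5 and 22.2, 22.6 and 23.0 CPM in GelMA 2, 3 and 4. It was 36.2, 36.6 and 34.5 CPM in PMLGH 2, 3 and 4, above all others. It rose by 0.86 ± 0.08 in PMLGH against Model (edgeR adjusted p = 1.3e-06) and by 0.66 ± 0.08 in PMLGH against GelMA (adjusted p = 1.5e-04), while GelMA against Model gave 0.20 ± 0.08 (adjusted p = 0.080). Tnfaip3, which encodes the NF-kappaB inhibitor A20, rose by 1.00 ± 0.12 with PMLGH and 0.56 ± 0.12 with GelMA against Model (edgeR adjusted p = 2.3e-05 and 0.0035). Tlr2, a receptor for bacterial lipoproteins, rose by 1.06 ± 0.09 and 0.55 ± 0.09 against Model (edgeR adjusted p = 6.3e-07 and 5.1e-04). Ptgs2, the inducible prostaglandin synthase, rose by 1.52 ± 0.18 and 1.25 ± 0.18 (edgeR adjusted p = 1.9e-05 and 1.6e-04).

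The summed level of the NF-kappaB and C/EBP list was 431 to 531 CPM in Model, 540 to 564 CPM in GelMA and 650 to 663 CPM in PMLGH, without overlap. An exact two-sided permutation test of the sum gave p = 0.1 for each pair of groups, the smallest that 3 against 3 libraries allow, so this test cannot pass 0.05. Over the 60 such sums tested, 31 pairs of groups did not overlap and the smallest adjusted p was 0.194. In GelMA against Model, 4 genes of the list rose without Model 5. In PMLGH against GelMA, 3 rose without GelMA 2, PMLGH 3 or PMLGH 4, and 2 without GelMA 3.

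Below the receptors, Socs3, the feedback inhibitor that G-CSF and interleukin-6 induce through STAT3, had the smallest p of the list. It was 15.0, 12.1 and 11.8 CPM in Model 1, 2 and 5, 37.4, 35.3 and 36.1 CPM in GelMA 2, 3 and 4, and 56.2, 52.8 and 53.1 CPM in PMLGH 2, 3 and 4. It rose by 2.06 ± 0.09 with PMLGH and by 1.48 ± 0.09 with GelMA against Model (edgeR adjusted p = 5.8e-10 and 3.2e-08), and by 0.58 ± 0.08 in PMLGH against GelMA (adjusted p = 7.6e-04). Stat3, the transcription factor above it, rose by 0.46 ± 0.07 and 0.28 ± 0.07 against Model (edgeR adjusted p = 1.2e-04 and 0.0058). In all, 7 of 18 signalling genes rose with PMLGH, 3 with GelMA and 1 in PMLGH against GelMA, and none fell, with list medians of 0.20, 0.13 and 0.09. The count for PMLGH against Model was 11 without Model 2, 4 without PMLGH 3 and 3 without Model 5. That for GelMA against Model was 9 without Model 2, and in PMLGH against GelMA 2 rose without Model 2. Without Model 5, 1 gene fell in each comparison with Model.

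Among 9 genes of neutrophil adhesion to vessels, 5 rose with PMLGH against Model, 1 with GelMA, and 1 in PMLGH against GelMA, and none fell. The list medians were 0.34, 0.22 and 0.24. Icam1, the endothelial ligand of neutrophil beta2 integrins, rose by 0.97 ± 0.09 with PMLGH (edgeR adjusted p = 3.0e-06) and 0.56 ± 0.09 with GelMA (adjusted p = 6.0e-04). Itgal, the alpha chain of LFA-1, rose by 0.53 ± 0.09 with PMLGH (adjusted p = 5.1e-04). Sele, encoding E-selectin of stimulated endothelium, rose by 0.68 ± 0.17 with PMLGH (adjusted p = 0.0078). In GelMA against Model, 5 rose without Model 2 and 2 without PMLGH 2, and 1 fell without Model 1, Model 2 or GelMA 4. With RLE or upper-quartile scaling, no filter, robust spread, DESeq2 or globin genes left out, 1 fell as well. No filter gave 3 rises there and DESeq2 gave 2. In PMLGH against GelMA, 3 rose without Model 2, and none without GelMA 2, GelMA 3, PMLGH 2, PMLGH 3 or PMLGH 4.

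Genes of neutrophils themselves were taken in 3 lists, by stage. Of 7 genes of early granules and precursors, none passed in either comparison with Model, with list medians of 0.10 and -0.03. Mpo, myeloperoxidase of primary granules, differed by 0.13 ± 0.09 with PMLGH and -0.03 ± 0.09 with GelMA, and Elane, neutrophil elastase, by 0.04 ± 0.09 and -0.11 ± 0.09. Summed CPM of this list was 2306 ± 284 in Model, 2218 ± 61 in GelMA and 2458 ± 208 in PMLGH (SD, n = 3), with all groups overlapping. Without Model 2, 3 of these genes rose with PMLGH. In GelMA against Model, Prtn3 (proteinase 3) fell in 8 of 19 alternatives. These were RLE and upper-quartile scaling, no filter, DESeq2, globin genes left out, and without Model 1 (-0.41), GelMA 3 (-0.36) or PMLGH 2 (-0.29). The 1 gene that rose in PMLGH against GelMA was also Prtn3. That call was lost in 8 of 20 alternatives, namely robust spread, each limma setting, and without GelMA 2, GelMA 4, PMLGH 3 or PMLGH 4.

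Ltf, the lactoferrin of secondary granules, had 38 counts over the 9 libraries and was not tested. Of 8 genes of late granules tested, 4 rose and 1 fell with PMLGH against Model, 2 rose with GelMA, and 1 fell in PMLGH against GelMA, with list medians of 0.33, 0.21 and 0.14. Mmp9, the gelatinase of tertiary granules that osteoclasts also make, rose by 0.53 ± 0.07 and 0.42 ± 0.07 against Model (edgeR adjusted p = 8.3e-05 and 8.9e-04). Olfm4, a marker of a subset of neutrophils, was highest in GelMA, with rises of 0.29 ± 0.06 with PMLGH and 0.60 ± 0.06 with GelMA against Model (edgeR adjusted p = 0.0031 and 9.5e-06). Fcnb, which encodes a ficolin, was the gene that fell with PMLGH. It no longer did so without PMLGH 2 or PMLGH 3, or in any limma setting. The rises with PMLGH numbered 7 without Model 2 and 2 without Model 1 or PMLGH 4. Those with GelMA numbered 5 without Model 2. In PMLGH against GelMA the fall of Olfm4 was lost without GelMA 2, GelMA 4, PMLGH 2 or PMLGH 3, and 1 gene rose without Model 2 or PMLGH 2.

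Of 8 genes of mature neutrophils, 2 rose with PMLGH and 1 with GelMA against Model, and none passed in PMLGH against GelMA, with list medians of 0.22, 0.14 and 0.06. Il1r2, the interleukin-1 decoy receptor, rose by 0.66 ± 0.14 and 0.65 ± 0.14 against Model (edgeR adjusted p = 0.0025 and 0.0035). Trem1, an amplifier of inflammatory signals on myeloid cells, rose by 0.46 ± 0.11 with PMLGH (edgeR adjusted p = 0.0058). The summed level was 7891 ± 1166 CPM in Model, 8503 ± 463 CPM in GelMA and 9094 ± 1129 CPM in PMLGH (SD, n = 3), overlapping throughout. S100a8 and S100a9 made up most of that sum, with means of 2663 and 4652 CPM in Model. Without Model 2, 5 rose with PMLGH and 3 with GelMA, and 4 rose with PMLGH without PMLGH 2. With GelMA 2 rose without GelMA 3 or GelMA 4. In PMLGH against GelMA, 1 fell without Model 2 or GelMA 4.

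Cxcr2 and Csf3r were also set against the summed counts of each neutrophil list. Most counts of the mature list came from S100a8 and S100a9, so that scale rests largely on these genes. Relative to every 1000 counts of the mature list, Cxcr2 was 5.25 ± 0.66 in Model, 6.62 ± 0.51 in GelMA and 7.12 ± 0.29 in PMLGH (SD, n = 3), and Csf3r was 19.2 ± 1.2, 19.1 ± 1.0 and 17.5 ± 0.5. Model ranged from 4.54 to 5.83 for Cxcr2 and did not reach the lowest GelMA (6.22) or PMLGH library (6.86), while GelMA and PMLGH overlapped. Against the early list, the Model libraries were lowest for Cxcr2 (15.6 to 20.6, with 24.1 to 27.0 in GelMA and 24.5 to 27.6 in PMLGH). Csf3r was also higher in GelMA (68.5 to 75.9) than in Model (62.2 to 67.7) on that scale, while PMLGH (60.6 to 68.6) overlapped both. Against the late list, Cxcr2 was 7.41 to 9.19 in Model, 9.72 to 10.7 in GelMA and 10.2 to 10.7 in PMLGH. Csf3r was 29.5 to 30.4, 27.7 to 30.0 and 25.3 to 26.6 on the late list, so that PMLGH was the lowest. All of these scales use genes that were counted in the same libraries, so this too is a description.

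Markers of other cell types differed between the same groups. Summed CPM of 6 fibroblast and matrix genes was 10022 to 11658 in Model, 19953 to 22503 in GelMA and 23032 to 26807 in PMLGH. That of 8 macrophage genes was 940 to 1094, 1269 to 1332 and 1351 to 1473, with Marco at 0 in 7 of 9 libraries. That of 6 endothelial genes was 299 to 330, 348 to 385 and 409 to 420. That of 4 osteoclast genes was 1086 to 1481, 1841 to 1943 and 2117 to 2725. These 4 sums did not overlap between any groups, in the order of the ligands. Col1a1 made up most of the fibroblast sum (9734 of 10973 CPM in Model on average), and Cd163 of the macrophage list went the other way, with means of 209.8, 196 and 179.5 CPM in Model, GelMA and PMLGH. Of the 6 endothelial genes, 3 were called higher and none lower in each comparison with Model. Kdr of that list averaged 64.7, 61.6 and 74.0 CPM in Model, GelMA and PMLGH, lowest in GelMA. Ctsk and Acp5 made up most of the osteoclast sum (1476 and 875.7 of 2370 CPM in PMLGH on average). Calcr of that list averaged 4.26, 6.75 and 2.49 CPM in the same groups, lowest in PMLGH. It was the only gene of the osteoclast list called in PMLGH against GelMA, where it fell. That call was lost without GelMA 2, PMLGH 3 or PMLGH 4, and with limma on log2(FPKM + 1) without the filter. The osteoblast sum (983.9 to 1420, 2047 to 2088 and 1903 to 2262) and the T cell sum (12.4 to 24.1, 27.7 to 32.4 and 30.5 to 39.8) were lowest in Model and overlapped between GelMA and PMLGH. The B cell sum was 203.5 to 325.5 in Model, 278.8 to 354 in GelMA and 179.6 to 209 in PMLGH, and the mast cell sum overlapped throughout. Skeletal muscle genes took another order, with a mean of 584 CPM in Model, 2419 CPM in GelMA and 905 CPM in PMLGH. Erythroid genes fell from 8284 CPM in Model to 6275 CPM in GelMA and 6235 CPM in PMLGH on average. The 4 keratin genes of epithelium were scarce, with sums of 4.42 to 5.55 CPM in Model, 3.09 to 9.08 in GelMA and 2.56 to 2.94 in PMLGH. Krt5 held 268, 203 and 1 counts in these groups. It was called lower in PMLGH against Model and against GelMA, and the call against GelMA was lost in several alternatives. The part of these cell types in the levels of the ligands was not tested.

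The genes whose levels were most like each member over the 9 libraries were found by Pearson r of log2 CPM among 12858 candidates. These r are high in part because the 3 groups lie apart. For Cxcl1 they were Efnb2, Slc7a2 and Rgs5 (r = 0.996 for Efnb2). For Cxcl2 they were Akap2, Fcrl2 and Lifr, and for Cxcl3 Myo10, Map4 and Alpl. Cxcl6 was most like Jag1, Clstn1 and Scin. For Csf3 they were Col6a2, Serpinh1 and Itga11. Both receptors had other partners, namely Hk3 (r = 0.99), Wipf1 and Niban1 for Cxcr2 and Cpne2, Fam107b and Ceacam4 for Csf3r (0.97 for Cpne2). Among these 21 genes Fcrl2 had the largest difference from Model, 4.14 with PMLGH and 3.99 with GelMA on the log2 scale.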

How the data were processed

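RNA of rat tibia was sequenced in 9 libraries. The authors deposited raw counts per gene symbol and FPKM, which per the file headers carry 1 column per library. For all 22798 genes with any count, the deposited FPKM were proportional to the counts within a relative tolerance of 0.0001, so they add gene length and no new measurement. The submitters' processing notes name DESeq2, with no version, and R 3.2.0. The aligner was not given in the sources used here, nor were the counting rule, strand, build and annotation, so reads of antisense partners cannot be told apart.

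Of 23768 genes, 970 had 0 counts throughout, and filterByExpr kept 16816. Total counts ran from 34571478 to 37166383 per library. Counts were TMM-scaled and fitted with edgeR 4.0.16 in R 4.3.3 (two-sided quasi-likelihood test, all 9 libraries, 6 residual degrees of freedom). Benjamini-Hochberg adjustment ran over all genes tested, with a threshold of 0.05. The common biological coefficient of variation was 10.1%. SEs were derived from the log2 difference and the root of its F statistic. The script was tested on simulated data. Counting intervals are at 95%.

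Members and lists were chosen with earlier results of these data known. Named were all 7 members, up to 4 genes of smallest p per pathway list, genes needed to spell out a small count, and the 3 genes most like each member with a mean of at least 1 CPM (log2 CPM with a prior count of 2). Some of these are passed over in the text. Promoters and gene order are from RefSeq (GRCr8). Alternatives were RLE and upper-quartile scaling, no filter, robust spread, only the groups compared, DESeq2 1.42.0, and limma 3.58.1 on log2(FPKM + 1) and log2(FPKM + 0.1). Further ones were globin genes left out, each library left out, and a replicate block fitted on GelMA and PMLGH alone.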

Additional observations from a re-analysis of the deposited data

How the results depend on the processing

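Between PMLGH and GelMA, 578 genes were called, 13 of them in the pathway lists. The respective counts were 1059 and 18 with only these groups fitted, 433 and 6 with limma on log2(FPKM + 1), 384 and 7 on log2(FPKM + 0.1), and 313 and 5 on log2(FPKM + 1) without a filter. Leaving out 1 library gave 303 (without PMLGH 3) to 1050 (without Model 2) genes, and 5 to 20 in the lists. A replicate block, also fitted without the Model libraries, gave 1037 and 21, to be set beside the 1059 and 18 with only these groups fitted. Same-numbered libraries of GelMA and PMLGH had correlations of deviations of 0.01, 0.07 and -0.03, and not every library was closest to its own number. These values gave no sign of pairing by number, though they cannot exclude it. In GelMA against Model, 24 list genes were called, with 19 (without Model 5) to 45 (without Model 2) when 1 library was left out. The cause was not tested. The split of calls in PMLGH against Model was 2637 higher and 1994 lower, but 2370 and 2495 with upper-quartile scaling.

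Log2 differences of scarce genes were smaller on log2(FPKM + 1), for example 4.01 for Cxcl2 and 0.51 for Csf3 in PMLGH against Model, as the pseudocount exceeds their Model level. Over 129 results for single genes, 2493 values were recomputed: 78 lost a call, 77 gained one, and 52 changed sign without being called in either. Counts under 3 in Model limit the ratio of Csf3.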
